A study of Homo sapiens with 9 samples.

Results

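Celastrol added to androgen was compared with androgen alone in LNCaP cells, on 6 of the 9 arrays of the series and over all 12165 genes that the arrays measured with a probe set of their own. The 6 arrays were chosen by their titles: 3 name R1881 with celastrol and 3 name R1881 with DMSO. LNCaP cells are an established line of human prostate cancer that responds to androgen. Every culture, controls included, was first kept for 2 days in medium with 10% charcoal-stripped serum, from which steroid hormones are largely removed. The androgen group then received 1 nM R1881, a synthetic androgen that cells do not metabolise, with DMSO. The androgen plus celastrol group, called the celastrol arrays here, received 1 nM R1881 and 1.25 µM celastrol for 24 h. The vehicle group received ethanol and DMSO for 24 h, and served as a reference level and in the estimate of spread that all 9 arrays share. For the androgen arrays the titles give 6 h, and the descriptions and protocol give 24 h. If the titles hold, celastrol and treatment time cannot be told apart in any value below. Each group held 3 arrays called biological replicates, with no word on how the cultures were kept separate, so that p-values measure the spread between these samples, which may be technical.

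Celastrol, a triterpenoid of the thunder god vine, carries a quinone methide that reacts with cysteine thiols, and it has been studied as an inhibitor of the chaperone HSP90 and as an inducer of the heat shock response. Cells sense such thiol-reactive compounds through KEAP1, which otherwise marks the transcription factor NRF2 (gene NFE2L2) for degradation by the proteasome. Released NRF2 pairs with small MAF proteins on antioxidant response elements and drives genes for glutathione, thioredoxin and quinone reduction. A second pathway, the integrated stress response, slows translation through the initiation factor eIF2 and raises ATF4, which with C/EBP proteins drives genes of amino acid supply and the factor DDIT3. The androgen receptor, which drives the secretory genes of the prostate, is itself held ready for hormone by HSP90.

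Promoter stretches are shown for 12 genes that moved, because each holds the sequence motif that textbooks assign to its pathway. RefSeq promoter windows (GRCh38.p14) run from 250 bases before the transcript start. By gene ID, 9709 of the 12165 genes matched the windows, and a gene can have several. A gene counted as holding a motif if any of its windows did, so shares of genes and shares of windows are not counted alike. Where several windows of a gene matched, the stretch comes from the window whose match lay nearest its start. Each stretch is 60 bases long and reads 5′ to 3′ on the gene's strand, with a motif match on either strand in capitals. For all motifs a match is of letters only, and binding was not tested.

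The antioxidant response element was searched as TGACNNNGC. It lies in chr1:93909431-93909490 (minus strand) for GCLM, chr12:104215655-104215714 (plus) for TXNRD1, chr22:38201847-38201906 (plus) for MAFF and chr21:36069840-36069899 (plus) for CBR1.
GCLM: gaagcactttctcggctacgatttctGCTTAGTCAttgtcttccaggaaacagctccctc
TXNRD1: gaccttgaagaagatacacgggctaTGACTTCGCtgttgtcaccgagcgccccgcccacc
MAFF: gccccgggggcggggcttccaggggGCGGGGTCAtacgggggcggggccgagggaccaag
CBR1: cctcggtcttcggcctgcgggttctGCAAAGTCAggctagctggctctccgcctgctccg

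The C/EBP-ATF response element was searched as TGATGNAA. It lies in chr1:212565190-212565249 (plus strand) for ATF3, chr7:30594818-30594877 (plus) for GARS1, chr7:97872443-97872502 (minus) for ASNS and chr19:33374045-33374104 (plus) for CEBPG.
ATF3: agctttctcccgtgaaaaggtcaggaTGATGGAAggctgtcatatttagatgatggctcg
GARS1: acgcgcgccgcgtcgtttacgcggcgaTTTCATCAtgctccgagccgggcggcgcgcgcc
ASNS: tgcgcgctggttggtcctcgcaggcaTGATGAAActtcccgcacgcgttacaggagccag
CEBPG: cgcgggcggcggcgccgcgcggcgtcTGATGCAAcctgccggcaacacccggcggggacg

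The cell cycle homology region, through which the DREAM and MuvB complexes time mitotic genes, was searched as TTTGAA. Matches to these letters lie in chr17:40418015-40418074 (minus strand) for TOP2A, chr4:17810917-17810976 (plus) for NCAPG, chr2:168890621-168890680 (minus) for SPC25 and chr10:56361274-56361333 (minus) for ZWINT. In that order, the matches shown start 151, 35, 247 and 17 bases before the transcript start.
TOP2A: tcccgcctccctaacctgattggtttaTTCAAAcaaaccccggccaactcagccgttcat
NCAPG: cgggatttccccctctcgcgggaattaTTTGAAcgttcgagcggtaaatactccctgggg
SPC25: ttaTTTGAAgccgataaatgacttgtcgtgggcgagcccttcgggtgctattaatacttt
ZWINT: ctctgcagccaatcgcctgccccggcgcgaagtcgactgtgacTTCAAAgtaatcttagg

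Celastrol moved 1976 of 12165 genes past an adjusted p of 0.05, which is 16.2% of those tested: 1095 rose (9.0%) and 881 fell (7.24%). The median log2 change over all genes was 0.02. Every celastrol array lay above every androgen array for 2483 genes (20.4%) and below for 1890 (15.5%). At least 2-fold rises numbered 163 (1.34%) and falls 152 (1.25%). Rises of at least 4-fold numbered 20 (0.164%) and falls 7 (0.0575%), while 7 genes rose at least 8-fold and 0 fell as far. Calls come from limma with Benjamini-Hochberg adjustment over all genes, and values after ± are standard errors of the log2 change with 3 arrays per group. Without the androgen array of replicate 2 the calls numbered 1306, with 711 higher, and without that of replicate 1 the lower calls numbered 550.

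The arrays differed little in scale, with median intensities of 72.2 to 80.2. The vehicle array of replicate 3 stood apart, with deviations from its group mean of SD 0.31 on the log2 scale against 0.119 to 0.202 on the 6 arrays compared, and 2667 genes were called without it and 2276 with only the 6 arrays compared. Of 8 measured markers of luminal prostate cells, none lay below the median of all genes in every group. Their summed intensity was 31422 to 31687 on the vehicle arrays, 53555 to 56822 on the androgen arrays and 37678 to 41162 on the celastrol arrays. The celastrol arrays thus lay between the other groups. With celastrol added 5 of the 8 fell, among them KLK2 and KLK3, which androgen had raised over vehicle. KRT8 and KRT18 also fell, but the KRT8 call was lost with the mean of probe sets (adjusted p = 0.639) and that of KRT18 in 6 alternatives. All markers of basal cells (4), endothelium (5) and leukocytes (4) lay below the median of all genes in every group, as did 6 of 7 stromal markers. In such bulk RNA, fewer cells of a type and less RNA per cell cannot be told apart.

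The largest rises were in enzymes that reduce reactive carbonyls and quinones. AKR1C2, an aldo-keto reductase that inactivates dihydrotestosterone, read 41.0, 55.7 and 50.9 on the androgen arrays and 5648, 7166 and 5356 on the celastrol arrays. The celastrol arrays stood far above every other array, and the rise was 6.94 ± 0.17 on the log2 scale (adjusted p = 2.96e-07), a 123-fold difference. Its neighbour AKR1C1 read 54.6, 63.1 and 48.5 with androgen and 5844, 6666 and 4331 with celastrol added, a rise of 6.65 ± 0.19 (adjusted p = 4.56e-07). Both were lower with androgen than with vehicle, by -0.72 and -0.74, so that celastrol moved them the other way from the hormone. AKR1C1 and AKR1C2 are close to identical in sequence, so that their split between probe sets is uncertain. The related AKR1C3, which makes testosterone from androstenedione, rose by 1.79 ± 0.35, to 69.4, 176 and 163. These readings lie on both sides of the median of all gene intensities (114). Whether its probe set also reads the far brighter AKR1C1 or AKR1C2 was not tested.

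HMOX1, which encodes the inducible heme oxygenase, read 78.8, 80.1 and 51.7 with androgen and 4914, 6510.1 and 4702 with celastrol added. Vehicle arrays, at 52.8 to 91.4, overlapped the androgen arrays, and only the celastrol arrays were high. The rise was 6.27 ± 0.26 (adjusted p = 4.37e-06), or 77.2-fold. Partners of heme breakdown moved with it. SLC48A1, which carries heme out of endosomes, rose by 1.82 ± 0.15, biliverdin reductase BLVRB by 1.40 ± 0.13 and the ferritin light chain FTL by 1.32 ± 0.09. Of 16 measured genes of heme and iron handling, 6 rose and 1 fell, with a median of 0.09 against 0.02 for all genes; with the mean of probe sets 2 fell. The member that fell was ALAD, an early enzyme of heme synthesis (-0.74 ± 0.11), and HMOX2, the constitutive heme oxygenase, did not pass (0.35).

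**Figure D1:**
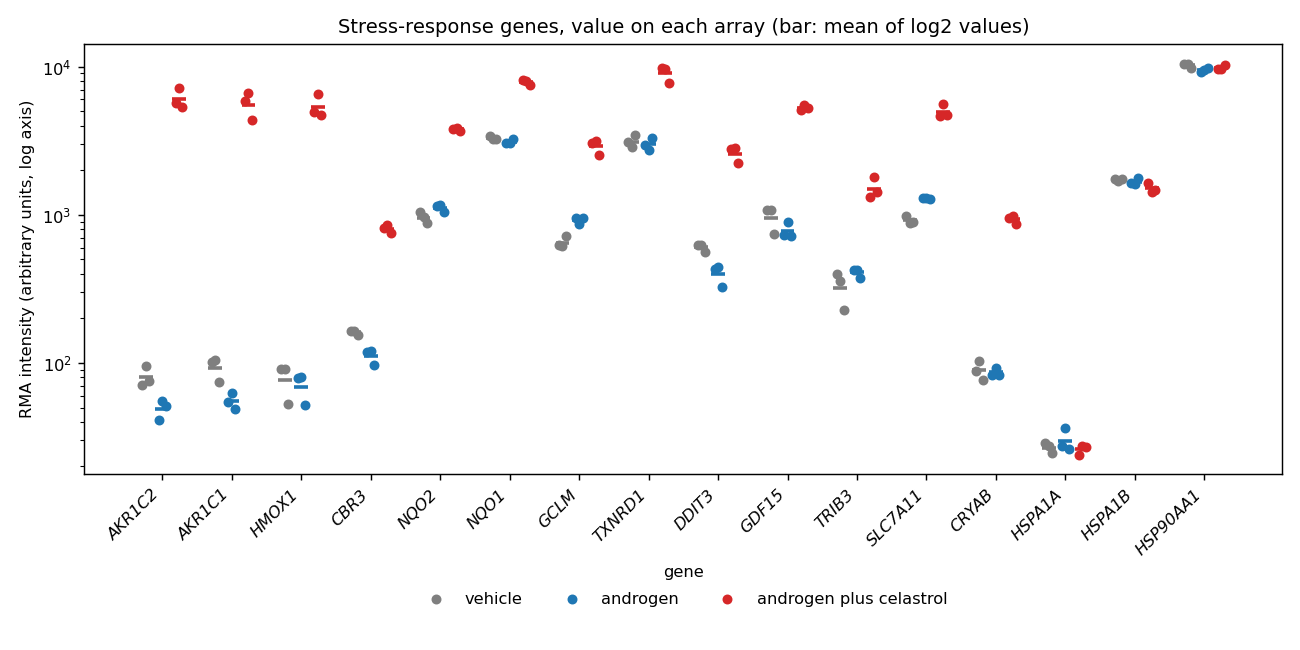
RMA intensity on each of the 9 arrays (log axis, arbitrary units) for 16 genes of oxidant, amino acid and heat stress, with vehicle in grey, androgen in blue and androgen plus celastrol in red; bars are means of the 3 log2 values. AKR1C2, AKR1C1 and HMOX1 lie at or below 104 in the vehicle and androgen groups and at 4331 or more with celastrol added, while HSPA1A, HSPA1B and HSP90AA1 overlap between the groups compared.

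Among the 17 measured aldo-keto, carbonyl and quinone reductases, 11 rose and 2 fell, with a median of 0.99. NQO1, the quinone reductase widely read as an NRF2 target, went from 3033 to 3221 on the androgen arrays to 7486 to 8057 on the celastrol arrays (1.34 ± 0.07, adjusted p = 1.93e-05). NQO2, which uses a different electron donor, rose by 1.75 ± 0.09, carbonyl reductase CBR3 by 2.85 ± 0.10 and its relative CBR1 by 1.11. The mitochondrial CBR4 (-0.65) and AKR7A2 (-0.51) fell.

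Regulators of the NRF2 pathway were themselves higher: 7 of 8 rose and 0 fell, also at an unadjusted p under 0.05, with a median of 0.64. SQSTM1, the autophagy receptor that binds KEAP1, read 2161, 2148 and 2469 with androgen and 6440.2, 6034 and 6009.5 with celastrol added (1.45 ± 0.08, adjusted p = 2.35e-05). The small MAF partners MAFF and MAFG rose by 1.41 ± 0.09 and 1.00 ± 0.21. BACH1, a repressor that competes for the same elements, rose by 0.64. NFE2L2 (0.53) and KEAP1 (0.51), named after their values were seen, rose less, and CUL3, the ubiquitin ligase scaffold of KEAP1, did not pass (-0.05).

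Transcripts of the rate-limiting enzyme of glutathione synthesis rose, and glutathione itself was not measured. The modifier subunit of glutamate-cysteine ligase, GCLM, read 958, 868 and 958 with androgen and 3034, 3156 and 2519 with celastrol (1.64 ± 0.11, adjusted p = 4.95e-05), and the catalytic subunit GCLC rose by 1.44 ± 0.11. CHAC1, which degrades glutathione, rose by 1.97 ± 0.10, and GGT1, which cleaves it outside the cell, fell by 1.05 on the log2 scale. Across the 14 measured members 4 rose and 2 fell, with a median of 0.04, and glutathione reductase GSR (0.03) and the peroxidase GPX1 (-0.07) did not pass. With each array's median subtracted, 1 fell.

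Thioredoxin reductase TXNRD1 read 2945, 2744 and 3280.5 with androgen and 9741, 9638 and 7718 with celastrol added (1.59 ± 0.12, adjusted p = 7.87e-05). Of 16 thioredoxin and peroxiredoxin genes 6 rose and 3 fell, with a median of -0.09. The median was 0.01 without the celastrol array of replicate 1. PRDX1 (0.67) and TXN (0.27) were among those that rose, while the peroxiredoxins PRDX2 (-0.04) and PRDX6 (-0.19) did not pass. Those that fell were TXNIP (-0.61 ± 0.07), an inhibitor of thioredoxin, the peroxisomal catalase CAT (-0.46) and the mitochondrial PRDX3 (-0.30), and with a mean-variance trend in the fit 5 fell. The PRDX3 call was lost in 6 alternatives, among them the mean of probe sets (adjusted p = 0.609). Malic enzyme ME1, a source of NADPH, rose by 1.07 ± 0.09.

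Across the NRF2, glutathione, thioredoxin, reductase and related lists, the antioxidant response element occurred in the promoter windows of 8 of 32 matched members that rose (25%), 2 of 9 that fell (22.2%) and 4 of 28 that did not pass (14.3%). Among all 9709 matched genes 16% held it, and among all 35116 windows 10.9% did. Of the 134 matched genes that rose at least 2-fold, 28 held it (20.9%). These are matches of letters within 250 bases before the start, and the stretches of GCLM, TXNRD1, MAFF and CBR1 above are 4 of them.

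Metallothioneins, small cysteine-rich proteins that bind zinc and copper, included 6 genes that rose. MT1X read 708, 739 and 741 with androgen and 2447, 2702 and 2317 with celastrol (1.77 ± 0.13, adjusted p = 7e-05), and MT2A rose by 1.64 ± 0.10. The 15 measured metallothionein and zinc transport genes held 6 that rose, all of them metallothioneins, and 1 that fell, the zinc importer SLC39A6 (-0.38), with a median of 0.37. The SLC39A6 call was lost without the androgen array of replicate 3 (adjusted p = 0.0502), where the list's median was 0.24, and 2 genes of the list fell in 7 alternatives. MT1E (0.26) and MT3 (0.28) did not pass. Metallothionein genes are close relatives, so that their split between probe sets is uncertain. SLC30A1, the zinc exporter that responds to free zinc, did not pass (0.21).

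The integrated stress response was the next large block. DDIT3, a transcription factor of prolonged stress, read 432, 447 and 325 on the androgen arrays and 2757, 2836 and 2219.6 on the celastrol arrays, and the groups did not overlap. It rose by 2.70 ± 0.14 (adjusted p = 1.93e-05), from a level that androgen alone had lowered by -0.60 against vehicle. GDF15, a secreted stress cytokine, rose by 2.76, the pseudokinase TRIB3 by 1.88 ± 0.21 and ATF3 by 1.62 ± 0.18. ATF4 itself, whose protein is set mainly by translation, rose by 0.91 ± 0.10. Of 25 measured regulators 14 rose and 0 fell (2 at an unadjusted p under 0.05; 1 or 2 passed in 8 of the alternatives), with a median of 0.43. The eIF2 kinase EIF2AK3 (0.00) and the phosphatase subunit PPP1R15A (0.01), which reverses the response, did not pass.

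Genes that bring amino acids into the cell rose with them, 10 of 21, and 0 fell, also at an unadjusted p under 0.05, with a median of 0.32. SLC7A11, the cystine importer that feeds glutathione synthesis, read 1306, 1306 and 1272 with androgen and 4638, 5626 and 4703 with celastrol added (1.94 ± 0.10, adjusted p = 1.41e-05). Its shared heavy chain SLC3A2 rose by 1.92 ± 0.17 and the leucine importer SLC7A5 by 1.51 ± 0.11. In synthesis the changes went both ways: 6 of 19 genes rose and 5 fell, with a median of -0.01. Asparagine synthetase ASNS (1.00 ± 0.10), PSAT1 (1.15 ± 0.10) and CTH (1.32 ± 0.19) supply asparagine, serine and cysteine. GOT2, a mitochondrial transaminase, fell (-0.58). The lower count was 3 without the androgen array of replicate 1, and 2 without that of replicate 2 or the celastrol array of replicate 2.

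Enzymes that load tRNAs were counted by compartment, and the difference between compartments was not tested. Among the 18 cytosolic synthetases 9 rose and 0 fell, also at an unadjusted p under 0.05, with a median of 0.38. GARS1 read 2833, 2886 and 2759.9 with androgen and 5739, 6012 and 5996 with celastrol added, without overlap (1.07 ± 0.07, adjusted p = 3.64e-05). SARS1 rose by 1.01 ± 0.08 and CARS1 by 0.88 ± 0.09, whereas KARS1 (-0.01 ± 0.08) and QARS1 (-0.19) did not pass. Of 11 synthetases of mitochondria 0 rose (1 at an unadjusted p under 0.05 and 1 past the threshold in 6 alternatives) and 3 fell, with a median of -0.18. NARS2 fell from between 594 and 640.1 to between 352 and 395 (-0.75, adjusted p = 0.000515). Only 1 of the 3 remained past the threshold without the celastrol array of replicate 2.

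The C/EBP-ATF response element was found in the windows of 7 of 32 matched members of these lists that rose (21.9%), 0 of 4 that fell and 3 of 28 that did not pass (10.7%). It occurred in 3.02% of all matched genes and 3.14% of all windows. Of the 134 matched genes that rose at least 2-fold 2.99% held it. ATF3, GARS1, ASNS and CEBPG, printed above, are among the 7.

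Chaperones did not move as one group. CRYAB, a small heat shock protein that holds unfolded proteins, read 83.5, 93.0 and 83.1 with androgen and 943, 983 and 867 with celastrol added (3.43 ± 0.12, adjusted p = 1.74e-06). HSPB8, which delivers clients to selective autophagy, rose by 2.23 ± 0.13, but its partner BAG3 read 1087, 973 and 937 against 1051, 1087 and 1034 and did not pass (0.08). Of 12 small heat shock and BAG genes 4 rose and 0 fell, also at an unadjusted p under 0.05, and the median was 0.07.

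The inducible HSP70 genes gave no rise. HSPA1B read 1626, 1602 and 1765 with androgen and 1626, 1431 and 1475 with celastrol added, overlapping groups with a difference of -0.14 ± 0.08 (adjusted p = 0.327). HSPA1A, of near-identical sequence and uncertain apart from it, differed by -0.18 ± 0.13. The constitutive HSPA8 fell, from between 12814 and 13579 to between 9149 and 9662 (-0.48, adjusted p = 0.00282). Of 13 HSP70 and HSP110 genes 2 rose (15.4%) and 1 fell (7.69%), against 9.0% and 7.24% of all genes. Their median was 0.06 (-0.01 under quantile normalization). Only 1 rose when any 1 of the 6 arrays except celastrol replicate 1 was left out. HSP90AA1 overlapped, at 9186 to 9816 against 9588 to 10187 (0.05 ± 0.07, adjusted p = 0.723).

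Among 16 genes of HSP90 and its partners 2 rose (12.5%) and 1 fell (6.25%), against 9.0% and 7.24% of all genes, with a median of -0.05. The one that fell was FKBP5, a co-chaperone that androgen itself raised by 4.49, and SGTA, a small co-chaperone of steroid receptors, rose by 0.79. Only 1 rose in 10 of the alternatives, which include leaving out any of the 6 arrays, and 2 or 3 fell in 7 of them. In the DNAJ family 2 rose and 2 fell of 18 (11.1% each, against the same 9.0% and 7.24%), with a median of 0.09. The higher count was 1 without replicate 2 or 3 of androgen or of celastrol and 4 without the vehicle array of replicate 3 or with the 6 arrays alone, and the lower count was 1 without any array of androgen or replicate 1 or 2 of celastrol. DNAJB4 rose by 1.52 ± 0.09 while DNAJB1, the HSP70 partner of the heat shock response, fell from between 966 and 989 to between 619.5 and 724 (-0.55, adjusted p = 0.00225).

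Several subunits of the CCT chaperonin, which folds actin and tubulin, were lower. Of 14 chaperonin and prefoldin genes 5 fell, all of them CCT subunits, and 0 rose (1 at an unadjusted p under 0.05, and 1 past the threshold in 4 alternatives), with a median of -0.16. CCT2 read 6391, 5981 and 6277 with androgen and 3589.6, 3894 and 4177 with celastrol added, without overlap (-0.68 ± 0.09, adjusted p = 0.0015). CCT3 and CCT6A each changed by -0.41 ± 0.07. The heat shock element, searched as 3 neighbouring GAA units of alternating direction, was in 0 of 8 matched chaperone genes that rose, 1 of 4 that fell (HSPA8) and 5 of 40 that did not pass (12.5%). It was in 0.546% of all matched genes and 0.441% of all windows.

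In the catalytic core of the proteasome 9 of 14 genes rose and in its regulatory particle 9 of 16, with 0 lower in either, also at an unadjusted p under 0.05. Medians were 0.37 and 0.40, so that most changes were under 1.5-fold. PSMB2 of the core read 3261, 3279 and 3305 with androgen and 5309, 5129.6 and 5262 with celastrol added (0.67 ± 0.07, adjusted p = 0.000259). PSMD12 of the regulatory particle rose by 0.76 ± 0.08, and the core subunit PSMA4 did not pass (-0.03 ± 0.08). Of 14 genes of the immunoproteasome, its activators and assembly 4 rose and 0 fell (1 at an unadjusted p under 0.05, and 1 past the threshold in 4 alternatives), with a median of 0.26. Ubiquitin and p97 factors gave 7 higher and 2 lower of 22, with a median of 0.12. Those that fell were the activating enzyme UBA1 (-0.68) and the conjugating enzyme UBE2N (-0.40), and 1 fell without replicate 1 or 3 of androgen, without replicate 2 of celastrol or with each array's median subtracted.

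Genes of autophagy and the lysosome formed a further raised block. GPNMB, a lysosomal membrane glycoprotein, read 196, 166 and 194 with androgen and 1669, 1782 and 1847 with celastrol added (3.26 ± 0.09, adjusted p = 4.56e-07). The lysosomal enzymes alpha-galactosidase GLA (1.47 ± 0.12), cathepsin D CTSD (1.26 ± 0.13) and CTSA (1.19 ± 0.15) rose as well. In the lysosome list 18 of 36 rose and 1 fell, with a median of 0.40, and the gene that fell was CTSC (-0.47), whose call was lost without the androgen array of replicate 2; without the vehicle array of replicate 3, 2 fell. Among transcription factors of lysosome genes TFE3 rose by 0.80 and TFEB did not pass (-0.06).

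For autophagy 10 of 28 rose and 0 fell (1 at an unadjusted p under 0.05, and 1 past the threshold in 6 alternatives), with a median of 0.28. Among ATG8 proteins GABARAPL1 rose by 1.25 ± 0.12 and MAP1LC3B by 1.03 ± 0.16, while GABARAP (0.35) and GABARAPL2 (0.18) did not pass. Among cargo receptors optineurin OPTN rose by 0.95 ± 0.16, besides SQSTM1, and TAX1BP1 (0.15) did not pass. GABARAPL1 read 224, 236 and 226 with androgen and 513, 480.5 and 650.5 with celastrol added, without overlap. RB1CC1, a scaffold of the initiating kinase complex, rose by 1.00 ± 0.09, while the kinase ULK1 (0.11) and BECN1 (-0.29) did not pass.

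**Figure D2:**
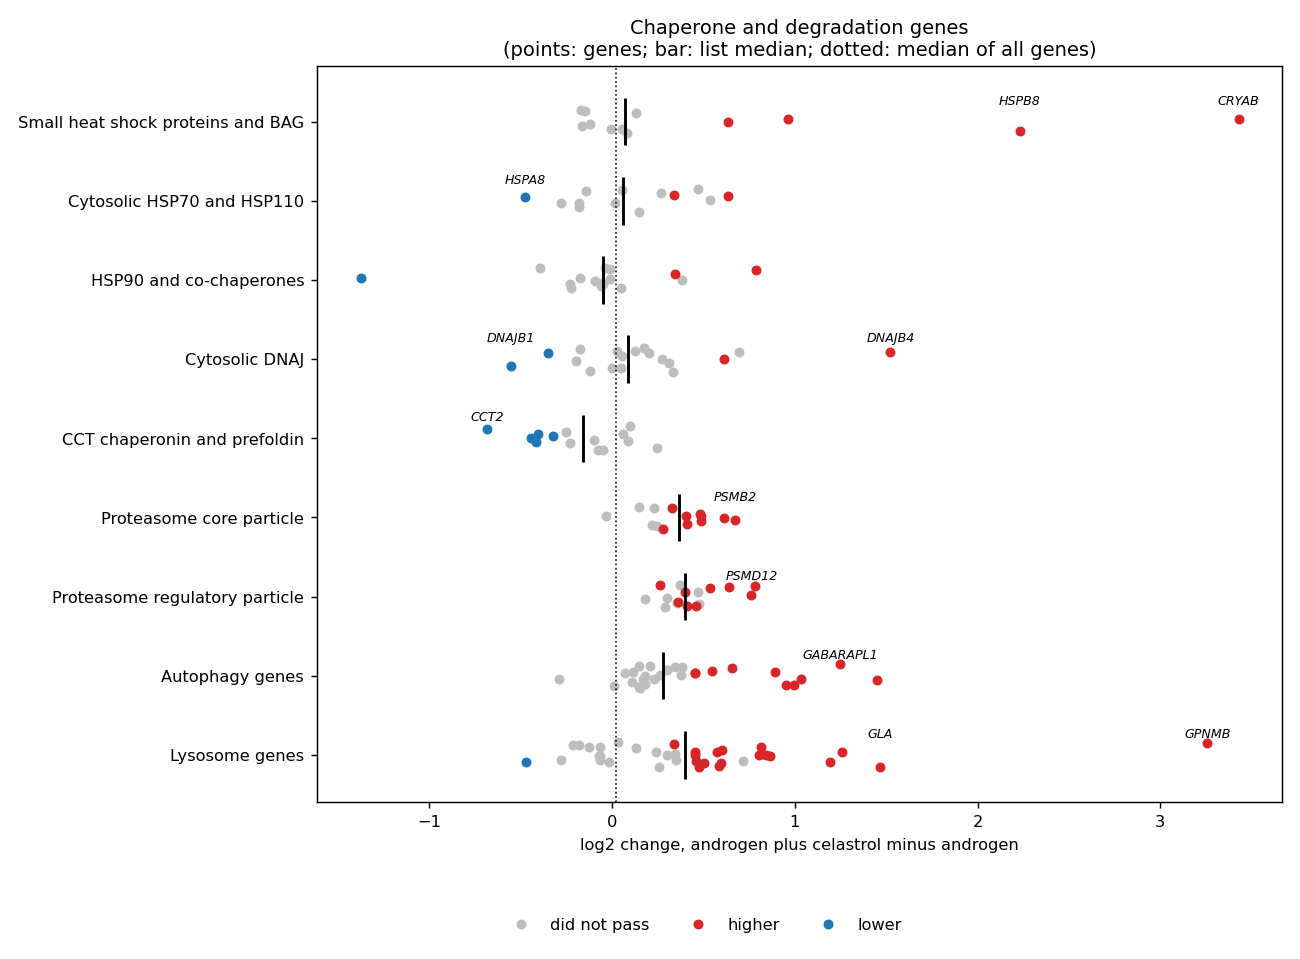
Log2 change with celastrol added (androgen plus celastrol minus androgen, horizontal axis) of every measured gene in 9 lists of chaperones and degradation; red points rose, blue points fell and grey points did not pass the threshold. Bars are list medians and the dotted line is the median of all genes (0.02): the proteasome medians of 0.37 and 0.40 lie to its right and the CCT median of -0.16 to its left, while CRYAB and HSPB8 stand apart from their list's median of 0.07.

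Genes of the endoplasmic reticulum rose less. Of 22 chaperones and disulfide isomerases there 6 rose (27.3%) and 1 fell (4.55%), against 9.0% and 7.24% of all genes, with a median of 0.24. Androgen had raised 15 of the 22 over vehicle (7.17% of all genes rose there). The count that rose with celastrol added was 2 with each array's median subtracted or without the androgen array of replicate 1 or 2. It was 3 without any other of the 6 arrays. The gene that fell was PDIA5 (-0.55), and no gene fell without replicate 2 of androgen or of celastrol. DNAJC3, which restrains eIF2 kinases, read 272, 311 and 318 with androgen and 516, 645 and 545 with celastrol added (0.92 ± 0.11, adjusted p = 0.000736), while HSPA5, the main chaperone of this compartment, did not pass (0.09). Of 17 stress sensors and degradation genes of this compartment 6 rose (35.3%) and 1 fell, with a median of 0.09. Only 1 of these rose with each array's median subtracted.

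Mitotic genes fell almost without exception: 47 of 49 fell and 0 rose, also at an unadjusted p under 0.05, with a median of -1.07. TOP2A, a topoisomerase that untangles chromosomes, read 517, 435 and 451 with androgen and 79.8, 111 and 107 with celastrol added. No celastrol array came near the others, and the change was -2.25 ± 0.14 (adjusted p = 3.66e-05), or 4.75-fold lower. The condensin subunit NCAPG changed by -1.76 ± 0.22, the kinesin KIF20A by -1.71 ± 0.14 and the kinetochore protein SPC25 by -1.63 ± 0.14. CENPE and CDC25B, at -0.84 and -0.60, were the 2 that did not pass. Androgen alone had raised 4 of the 49 over vehicle and lowered 0, with a median of 0.23 (7.17% of all genes rose there). TOP2A lay 0.13 and NCAPG 0.39 above vehicle, neither past the threshold.

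Of the 41 mitotic genes that fell and had a promoter window, 23 held the letters TTTGAA (56.1%), searched as the cell cycle homology region. They were held by 13.8% of all matched genes and 13.3% of all windows. In 15 of the 23 a match lay within 60 bases of a transcript start, as in the stretches of NCAPG and ZWINT printed above. Among all 132 matched genes that fell at least 2-fold 31 held these letters (23.5%).

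DNA replication fell too, at 27 of 48 genes with 1 higher and a median of -0.60. Without the celastrol array of replicate 2 the lower count was 17, and without the vehicle array of replicate 3 the higher count was 2. RRM2, the subunit of ribonucleotide reductase made in S phase, read 3099, 2689 and 2888 with androgen and 392, 476 and 726 with celastrol added (-2.49 ± 0.20, adjusted p = 0.000108). Its constant partner RRM1 did not pass (-0.19). Thymidylate synthase TYMS and the initiation kinase CDC7 each changed by -1.76, and the helicase subunit MCM7 by -1.16 ± 0.12. The member that rose was ORC3, a subunit of the origin recognition complex, from between 242 and 268 to between 389 and 458 (0.71 ± 0.10, adjusted p = 0.00186).

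Of 24 genes of homologous recombination and the Fanconi pathway 9 fell and 1 rose, with a median of -0.41. RAD51AP1, which stimulates strand invasion, changed by -1.49 and FANCI by -1.36 ± 0.25. BARD1 was the exception. It read 2735, 3276 and 2722 with vehicle, 848, 794 and 732 with androgen, and 1692, 1568 and 1515 with celastrol added. The celastrol arrays lay between the other groups, with a rise of 1.01 ± 0.10 over androgen (adjusted p = 0.000309).

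Factors upstream in the cell cycle changed in part. Cyclin D1 (CCND1) fell from between 682 and 698 to between 385 and 489 (-0.72 ± 0.10, adjusted p = 0.00158), and the CDK inhibitor CDKN1B rose by 0.48. E2F8, a repressor made in S phase, changed by -1.35 ± 0.17 and MYBL1 by -1.23 ± 0.15, whereas RB1 (-0.14 ± 0.09) did not pass. Of 15 measured E2F, RB and MuvB factors 1 rose and 4 fell, with a median of -0.19; none rose when any 1 of the 6 compared arrays was left out, and 3 rose without the vehicle array of replicate 3. MYC read 2985, 3028 and 2923 with androgen and 1741, 1619 and 2279 with celastrol added (-0.68 ± 0.13, adjusted p = 0.00752), and JUN changed by -0.66 ± 0.10. They were the 2 that fell (7.14%) of 28 immediate early and feedback genes, with a median of 0.01. The 3 that rose (10.7%) were EGR1 (0.97 ± 0.10), DUSP5 (0.76) and IER2 (0.43). Both shares lay near those of all genes, 7.24% lower and 9.0% higher. Of 22 cyclins, CDKs and inhibitors of G1 3 rose and 5 fell, with a median of -0.04 (0.01 with the mean of probe sets); the lower count was 2 or 3 when any androgen array or the celastrol array of replicate 2 was left out.

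Readings of histone genes showed no shared fall like that of the replication list. How fully these arrays capture histone transcripts was not tested. Of 37 from the histone clusters 5 rose and 1 fell, with a median of 0.02, and 2 or 3 rose when any 1 of the 6 compared arrays other than the celastrol array of replicate 1 was left out, while 2 fell in 5 alternatives. H4C3 read 449, 492 and 449 with androgen and 108, 199 and 141 with celastrol added, without overlap (-1.68 ± 0.20, adjusted p = 0.000718). Copies of histone genes are near-identical, so that the reading of any single one is uncertain.

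Splicing factors of the SR family were among the other genes that fell. SRSF3 read 5516, 5327 and 5738 with androgen and 2408, 2530.1 and 2923 with celastrol added (-1.08 ± 0.09, adjusted p = 0.000112). SRSF2 (-0.71), SRSF7 (-0.60 ± 0.08) and SNRPA (-0.71 ± 0.11), a protein of the U1 particle, fell as well. Across 40 splicing genes 10 fell and 1 rose, with a median of -0.13. The lower count was 4 with each array's median subtracted, 5 without replicate 1 of androgen or replicate 2 of celastrol, and 6 without replicate 2 of androgen. The rise, in PRPF3 (0.34), did not pass in 9 alternatives.

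Ribosomal proteins and the respiratory chain stayed near the median of all genes. With limma 0 of 39 ribosomal protein genes and 0 of 36 respiratory genes passed in either direction, and medians were -0.04 and -0.07. At an unadjusted p under 0.05 the lower counts were 1 and 5 and the higher counts 0 and 1. With a mean-variance trend 5 respiratory genes passed as lower and 1 as higher, and with the mean of probe sets 1 ribosomal protein gene passed as lower. In ribosome biogenesis 5 of 30 fell and 0 rose, also at an unadjusted p under 0.05, with TCOF1 (-0.63) and BYSL (-0.60) among them. That lower count was 9 under cyclic loess or quantile normalization and 3 without the androgen array of replicate 1 or 2.

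**Figure D3:**
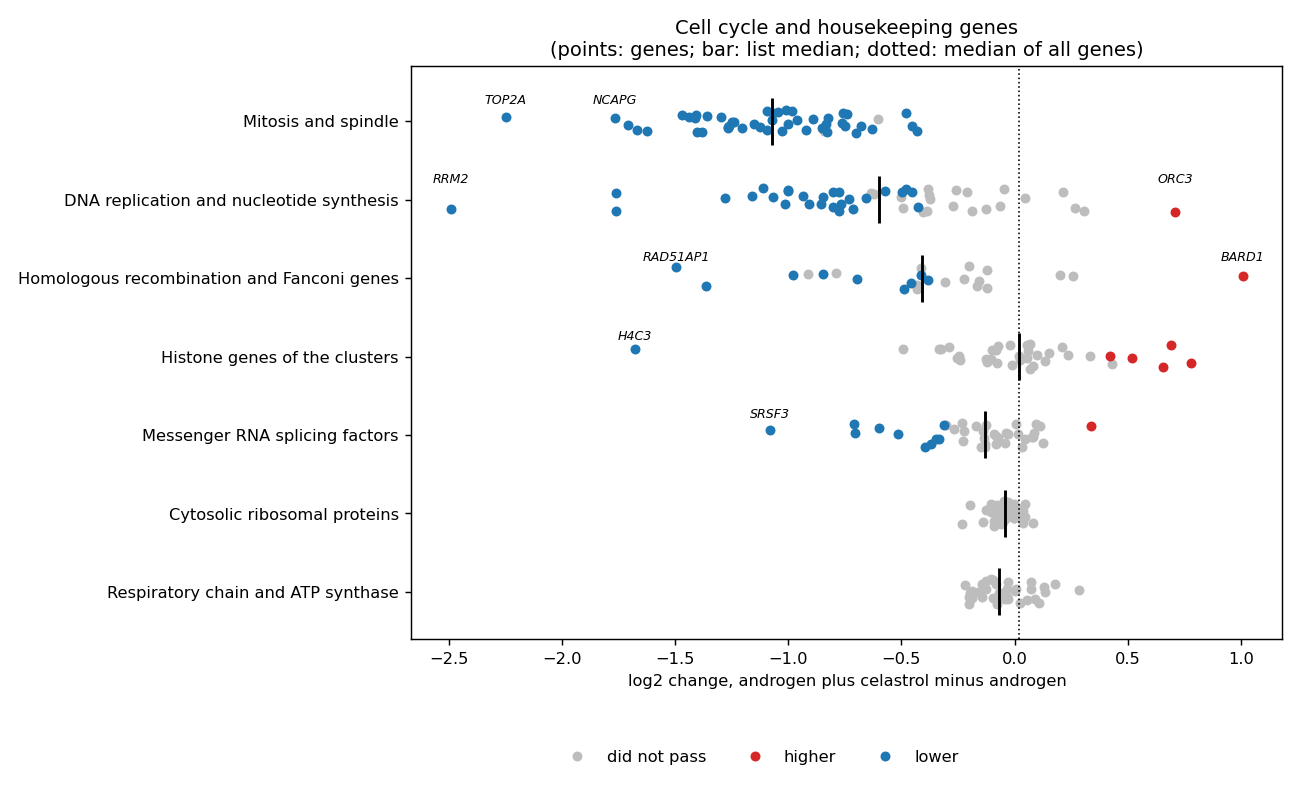
Log2 change with celastrol added (horizontal axis) of every measured gene in 7 lists of cell division, repair, splicing and housekeeping; colours, bars and dotted line mark calls, list medians and the median of all genes. The mitosis list lies wholly to the left with a median of -1.07, BARD1 and ORC3 stand to the right of their lists, and no ribosomal protein gene passed the threshold.

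Most genes known to be induced by androgen fell with celastrol added. The list was chosen with earlier results of these arrays known, so that its direction is no independent evidence, and the comparisons with vehicle and with celastrol share the androgen arrays. Androgen raised 31 of its 34 measured members over vehicle (7.17% of all genes rose there), with a median of 2.09. With celastrol added 24 of the 34 were lower than with androgen alone and 0 higher (1 at an unadjusted p under 0.05), with a median of -0.78.

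KLK3, which encodes prostate-specific antigen, read 3040.0, 3011 and 3270.5 with vehicle, 13778, 13455 and 14078 with androgen, and 7171, 7904 and 7904 with celastrol added. The celastrol arrays lay between the other groups without overlap, -0.85 ± 0.08 from androgen (adjusted p = 0.000181) and 1.30 ± 0.08 from vehicle. FKBP5 read 129 to 135 with vehicle, 2839 to 3252 with androgen and 969.8 to 1424 with celastrol added (-1.37 ± 0.14, adjusted p = 0.00027). The kallikrein KLK2 changed by -1.51 ± 0.26 and remained 3.47 ± 0.26 above vehicle. KLK2 and KLK3 are close in sequence, so that their split is uncertain.

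TMPRSS2, the androgen-driven protease gene, was a contrast. It read 390.3 to 510.2 with vehicle, 3481, 3945 and 4593 with androgen, and 3142, 3491 and 4119.9 with celastrol added. The androgen and celastrol arrays overlapped, at -0.16 ± 0.15 (adjusted p = 0.574). PMEPA1, an inhibitor of TGF-beta signalling, and TPD52 also did not pass, at -0.07 and -0.04.

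Some genes raised by androgen overlapped vehicle with celastrol added. SPOCK1, a matrix proteoglycan, read 38.5 to 69.6 with vehicle, 236, 235 and 246 with androgen, and 39.5, 55.6 and 62.6 with celastrol added (-2.21 ± 0.23, adjusted p = 0.000325). INPP4B, a lipid phosphatase of PI3K signalling, read 192 to 256 with androgen and 51.1 to 75.9 with celastrol added, where it overlapped vehicle (-1.82 ± 0.22). For KRT19, a luminal keratin, the androgen arrays read 175 to 228 and the celastrol arrays 55.7 to 74.3, again overlapping vehicle (-1.62 ± 0.17). The peptide transporter SLC15A2 changed by -2.20 ± 0.18 and stayed 1.35 ± 0.18 above vehicle. PIAS1, a SUMO ligase that acts on the androgen receptor, changed by 1.08 with androgen and by -1.23 ± 0.09 with celastrol added.

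UGT2B28 and ACP3 fell below vehicle. UGT2B28, which conjugates steroids, read 229.5, 186 and 155 with vehicle, 546, 680.3 and 602 with androgen, and 92.9, 82.3 and 104 with celastrol added. The celastrol arrays were the lowest of all 9, -2.71 ± 0.16 from androgen (adjusted p = 2.38e-05) and -1.02 ± 0.16 from vehicle. UGT2B genes are close relatives, so that their split is uncertain. ACP3, prostatic acid phosphatase, was not raised by androgen: it read 3442 to 4263 with vehicle, 3133 to 3293 with androgen and 572 to 627 with celastrol added (-2.41 ± 0.10, adjusted p = 3.76e-06). It lay 5.33-fold below androgen with no overlap. F5, a coagulation factor, fell by 1.84 on the log2 scale, a call that was lost when any 1 of the androgen arrays was left out (adjusted p of 0.0511 to 0.0584).

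**Figure D4:**
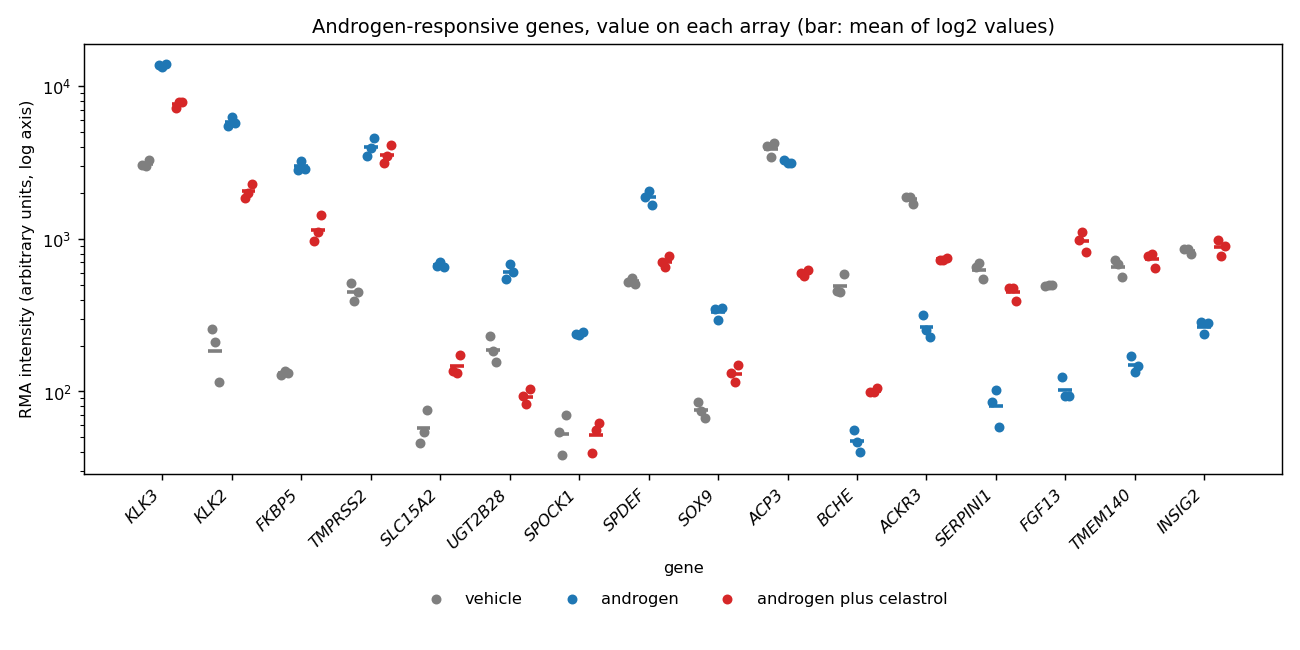
RMA intensity on each array (log axis, arbitrary units) of 16 genes that respond to androgen or mark the prostate, with vehicle in grey, androgen in blue and androgen plus celastrol in red; bars are means of the 3 log2 values. KLK3, KLK2 and FKBP5 with celastrol added lie between vehicle and androgen, TMPRSS2 overlaps androgen, SPOCK1 overlaps vehicle and ACP3 lies below both.

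Genes that androgen lowers did not move in 1 direction. Of 24 measured members of that list 6 rose with celastrol added and 8 fell, with a median of -0.01; androgen had lowered 15 of them (5.84% of all genes fell there) and raised 5. SERPINI1, a serine protease inhibitor, read 654, 698 and 544 with vehicle, 85.4, 102 and 58.7 with androgen, and 478, 474 and 392 with celastrol added (2.48 ± 0.20, adjusted p = 9.22e-05). The chemokine receptor ACKR3 rose by 1.48 ± 0.12 and stayed 1.30 on the log2 scale below vehicle, and BCHE, butyrylcholinesterase, rose by 1.10 ± 0.14. IL1RN (0.20) and UGT2B17 (0.08), which androgen had changed by -3.50 and -3.38, did not pass. Several members that fell, UGT2B28, LIFR (-1.07 ± 0.14) and AKAP12 (-1.06) among them, were ones that androgen had raised in these arrays.

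Outside that list, FGF13, an intracellular relative of the fibroblast growth factors, read 493, 502 and 502 with vehicle, 124, 92.8 and 93.8 with androgen, and 982, 1104 and 824 with celastrol added. The celastrol arrays exceeded vehicle, and the rise over androgen was 3.23 ± 0.14 (adjusted p = 6.04e-06). TMEM140 overlapped vehicle with celastrol added, at 643 to 798 against 564 to 724, with 134 to 170.4 for androgen (2.29 ± 0.14). INSIG2, which holds back sterol synthesis, did likewise, at 775 to 982 against 793 to 864 with vehicle and 239 to 283 with androgen (1.72 ± 0.11, adjusted p = 3.64e-05).

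Transcription factors of the prostate lineage changed selectively. Of 25 measured 5 fell and 0 rose (1 at an unadjusted p under 0.05, and 1 past the threshold with the mean of probe sets), with a median of -0.04. SPDEF, an ETS factor of secretory epithelium, read 1892, 2064 and 1667 with androgen and 702, 658 and 768 with celastrol added (-1.40 ± 0.10, adjusted p = 7e-05). SOX9 changed by -1.33 ± 0.13, SOX4 by -1.11 ± 0.09 and ETV1, which is rearranged in LNCaP cells, by -0.78 ± 0.09. HOXB13 (0.12 ± 0.14) and FOXA1 (0.00), 2 factors that guide the androgen receptor, did not pass.

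Growth factor receptors were partly lower. Among 29 genes of receptor tyrosine kinases and PI3K signalling 9 fell and 1 rose, with a median of -0.21, and 2 or 3 rose in 8 alternatives. The median was -0.11 without the celastrol array of replicate 1, -0.08 with the mean of probe sets and -0.35 with only genes above the median intensity. ERBB3 read 1317, 1163 and 1174 with androgen and 744, 743 and 717 with celastrol added (-0.73 ± 0.08, adjusted p = 0.000375). IGF1R, which androgen had raised by 2.50, changed by -0.82, while EGFR (-0.31) and the insulin receptor INSR (-0.04) did not pass. The gene that rose was FGF13.

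Other lists held fewer calls or calls in both directions. For p53 targets 4 of 19 rose and 1 fell, for the BCL2 family 3 of 18 rose and 1 fell, and for NF-kappaB genes 1 of 20 rose and 1 fell, with medians of 0.09, 0.11 and -0.01. With any 1 of the 6 compared arrays left out 2 or 3 p53 targets and 1 or 2 BCL2 genes rose, but 5 BCL2 genes rose without the vehicle array of replicate 3 and in 4 other alternatives. Without the celastrol array of replicate 1, 2 genes fell in each of these 2 lists. The lower count for NF-kappaB genes was 2 without the vehicle array of replicate 3 or with the 6 arrays alone, and 0 with the mean of probe sets or with only genes above the median intensity. GADD45A, a p53 target also driven by ATF4, rose by 0.79 ± 0.13, while BAX (-0.45) and MDM2 (-0.33) did not pass. Of 28 interferon response genes 6 rose, with ISG20 at 2.01 and IFI35 at 1.33 ± 0.24, and 1 fell. That was OAS3 (-0.62), and no gene of the list fell without replicate 1 or 2 of androgen or replicate 1 of celastrol, or with only genes above the median intensity. Of 14 polyamine genes 2 rose and 3 fell, with a median of 0.03. Spermine synthase SMS, which androgen had raised by 1.75, changed by -1.22 ± 0.13, and AZIN1, which protects ornithine decarboxylase, rose by 0.75 ± 0.07. Coregulators of the androgen receptor gave 5 higher and 7 lower of 30, with a median of 0.01, and 2 to 5 higher and 3 to 7 lower with any 1 of the 6 compared arrays left out. Their median was -0.06 without the androgen array of replicate 3.

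Single genes outside these groups filled out the extremes. NIBAN1, a gene known from endoplasmic reticulum stress, read 83.0, 84.2 and 65.1 with androgen and 1212, 1410.2 and 1143 with celastrol added, a rise of 4.02 ± 0.22 (adjusted p = 2.23e-05) and 16.2-fold. LGALS8, a galectin that detects damaged endosomes, rose by 2.36 ± 0.11, and all 4 of its other probe sets rose as well. The amino acid transporter SLC38A6 rose by 2.76 ± 0.26 and the microRNA host transcript MIR22HG by 2.58 ± 0.30. Tubulin genes diverged: TUBA1A read 2875, 2758 and 2406 and then 1330.5, 1154 and 1306 (-1.08 ± 0.10), whereas TUBA4A rose by 1.19 ± 0.10 and TUBB2A by 0.85 ± 0.08. The clock repressor CRY1 changed by -1.03 ± 0.09 and BHLHE40 by -1.46 ± 0.19. They were the 2 that fell of 18 circadian clock genes, of which 4 rose, with a median of -0.18. Those that rose were DBP (0.92), NR1D2 (0.85), BMAL1 (0.69) and NFIL3 (0.51). The higher count was 2 without replicate 1 of androgen or replicate 3 of celastrol, and the median was -0.01 with the mean of probe sets. The fatty acid elongase ELOVL6 rose by 1.40 ± 0.07.

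**Figure D5:**
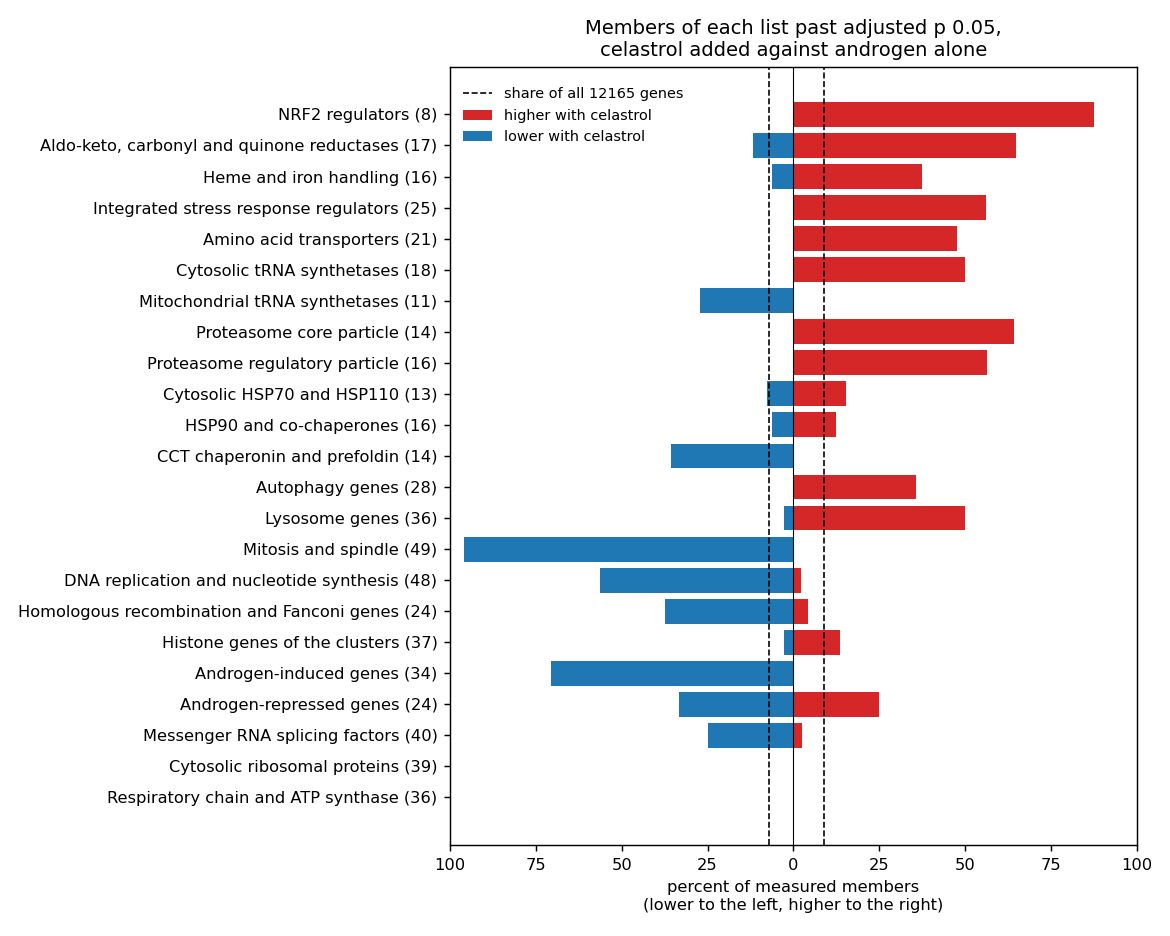
Percent of measured members past the adjusted p threshold in 23 gene lists, with those higher with celastrol in red to the right and those lower in blue to the left; list sizes are in brackets and dashed lines give the shares of all 12165 genes, 9.0% higher and 7.24% lower. NRF2 regulators (7 of 8) and reductases (11 of 17) reach furthest to the right and mitotic genes (47 of 49) and androgen-induced genes (24 of 34) furthest to the left.

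Other probe sets of the called genes passed in fewer than all cases. Of the 1976 genes called, 914 had more than 1 probe set; for 407 of these another set passed in the same direction and for 4 in the opposite one. Each gene was read here from its brightest probe set, so that a change confined to other transcript ends would be missed.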

How the data were processed

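Trizol RNA from 9 LNCaP cultures was made into biotinylated cRNA for Affymetrix arrays, per the labels' protocols. The authors deposited linear intensities per probe set. They came from RMA, per the submitters' processing notes, in a version not given in the sources used here. RMA equalises arrays, which removes differences in total RNA. Of 22215 probe sets, 19724 had 1 gene in the platform annotation, 568 several and 1923 none; symbols were updated by gene ID for 19707. The probe set with the highest mean log2 value stood for each of 12165 genes. The deposited intensities were taken to log2 with a pseudocount of 0.

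One limma model (version 3.58.1, R 4.3.3) was fitted to all 9 arrays, with lmFit and a trend-free eBayes that had 6 residual and 2.7 prior degrees of freedom. Benjamini-Hochberg adjustment ran over all genes and the threshold was 0.05. For arrays, their number limits the precision; the median standard error was 0.13. The fit was tested on simulated data. Alternatives were another normalization, fit, probe-set rule, filter or pseudocount, the 6 arrays alone, a replicate term, and leaving out each androgen array, each celastrol array and the vehicle array of replicate 3; the other vehicle arrays were not left out in turn.

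The members, the 55 gene lists and the rule for named genes were chosen with earlier results of these data known. The rule took the 20 largest rises and falls among called genes with no overlap between arrays, up to 5 members of each list in each direction and up to 3 that did not pass, and 20 fixed genes; others named were chosen after their values were seen. Lists are described by counts and medians, with no set test.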

Additional observations from a re-analysis of the deposited data

How the results depend on the processing

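The number of genes called in either direction was 1306 to 1601 when single androgen or celastrol arrays were left out, against 1976 with all; the higher calls numbered 711 to 942 and the lower calls 550 to 774. Without androgen replicate 2 they were 1306 in all and 711 higher, and without androgen replicate 1 the lower calls were 550. Without vehicle replicate 3 there were 2667, with 1512 higher and 1155 lower. Other settings with 1 value per gene gave between 1716 and 2311 calls, and a fit to every probe set called 2603 probe sets. None of the 474 genes named by the rule changed direction past the threshold. Of the 312 called among them, 227 stayed past the threshold in all 17 alternatives run for single genes; of the 162 not called, 44 passed in at least 1. Cyclic loess gave 1076 higher and 1094 lower calls and quantile normalization 1055 and 1093, against 1095 and 881. Replicate numbers 1 to 3 recur in every group, but deviations of same-numbered androgen and celastrol arrays correlated at -0.09, 0.21 and -0.19 over genes, so that the numbers were not taken as pairs; with a replicate block 1716 genes were called. The conflict over 6 or 24 h for the androgen arrays was not tested, since no array settles it. Array batches were not tested, for want of scan dates in the sources used here.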
